A study of Mus musculus with 28 samples.

Results

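Activins and transforming growth factors beta are secreted ligands that signal to the same transducers inside the cell, and the 10 genes described here are a part of their pathways. They were taken by symbol from 52636 genes counted in whole first molar tooth germs: the activin subunit genes Inhba and Inhbb, the ligand genes Tgfb1, Tgfb2 and Tgfb3, the activin antagonist gene Fst, and the receptor genes Acvr2a, Acvr2b, Tgfbr1 and Tgfbr2. All 10 passed the filter on low counts, as did 19101 genes in all. The tooth germs came from C57BL/6JOlaHsd mice at E13 (the bud stage), E14 (the cap stage) and E16 (the bell stage), each of which the labels place at the middle of that embryonic day, with 7 teeth at each stage and 1 library per tooth. The teeth of E13 came from 7 embryos, those of E14 from 6 and those of E16 from 5, because 1 embryo at E14 and 2 embryos at E16 gave both the left and the right tooth. A second table holds E13 and E16 teeth together with 6 lower first molars of wild-type embryos labelled E15. No group carried a mutation or received a treatment, so every comparison is between stages.

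Activins are dimers of inhibin beta subunits. The product of Inhba forms activin A and that of Inhbb forms activin B. Both bind the type II receptors encoded by Acvr2a and Acvr2b, which then activate a type I receptor and through it the transducers Smad2 and Smad3. Follistatin, the product of Fst, binds activins outside the cell and keeps them from their receptors. Tgf-beta ligands are secreted in a latent form, held by latency proteins in the matrix, and once released they signal through Tgfbr2 and Tgfbr1 to the same Smads. In the tooth, activin A is known as a mesenchymal signal that the lower molar needs to pass beyond the bud stage, and follistatin as an epithelial factor that takes part in the shaping of cusps.

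Total counts per tooth lay between 17814073 and 27115729. One E16 library, from embryo 3 (left tooth), stood apart from the others. It had the lowest total count, and its share of counts from the mitochondrial genome, 4.44%, was above the 1.15% to 3.76% of the other 20 teeth. Its summed level of 10 dental mesenchyme markers was 2469 in CPM (counts relative to the normalised library total), against 5383 to 6022 in the other E16 teeth. Its summed levels of 10 epithelium markers and 8 endothelium markers were 2820 and 176 CPM, against 4202 to 4979 and 416 to 501. Its keratinized epithelium markers, at 886 CPM, lay within the 525 to 1170 of the other E16 teeth and far above the highest E14 tooth at 24.0, as its label would have it. Changes of the axis genes that involve E16 are therefore given with all teeth and, beside them, without this tooth. Summed levels in single teeth were at least 1133 CPM for the epithelium markers and 2469 CPM for the dental mesenchyme markers. No marker of these lists was at 0 throughout a stage, which says nothing about single teeth.

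The makeup of the tooth germs moved with stage. The median summed level of the 10 epithelium markers went from 1337 CPM in the E13 teeth over 2274 to 4574 CPM in the E16 teeth, and 9 of the 10 rose at each step. That of the 10 dental mesenchyme markers was 5965, 5842 and 5688 CPM, while single markers moved: between E13 and E16, 5 of the 10 fell and 2 rose, with a median log2 fold change of −0.41. Msx1 and Prrx1, transcription factor genes of the dental mesenchyme, were lower (log2 fold changes −1.32 and −1.54), and Col3a1, a collagen gene that makes up much of the sum, was higher (0.43, from 1878 to 2536 CPM). Without the E16 tooth that stood apart 5 fell and 3 rose. Endothelium markers had medians of 330, 385 and 427 CPM, and the 10 macrophage and leukocyte markers 48.5, 96.3 and 143 CPM. All 8 enamel knot markers rose from E13 to E14, from a summed level of 14.1 to 27.8 CPM up to 111 to 167 CPM. Surrounding tissue showed in single teeth: skeletal muscle markers reached 1249 CPM in the left tooth of embryo 7 at E13 (the next E13 tooth had 199), and bone markers 904 CPM in the left tooth of embryo 8 at E14 (the next had 398). The part of these markers in the results on the axis genes was not tested. In whole tooth germs, fewer cells of a type and less RNA per cell cannot be told apart.

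The genes lie on 7 chromosomes of the mouse genome, build GRCm38. Inhba (chr13:16011851-16031621, plus strand) and Fst (chr13:114452290-114458951, minus strand) share chromosome 13 without being neighbours. Inhbb (chr1:119415465-119422248) and Tgfb2 (chr1:186622792-186705989) are both on the minus strand of chromosome 1. Acvr2b (chr9:119402118-119434995, plus strand) and Tgfbr2 (chr9:116084293-116175360, minus strand) are on chromosome 9. Acvr2a (chr2:48814109-48903269, plus strand), Tgfb1 (chr7:25687002-25705077, plus strand), Tgfb3 (chr12:86056745-86079041, minus strand) and Tgfbr1 (chr4:47353222-47414931, plus strand) each stand alone on their chromosome. Exons of Acvr2a overlap those of Orc4 on the opposite strand, and exons of Fst, Tgfb2 and Tgfb3 overlap predicted genes on the opposite strand. The strand setting of the counting is not given in the sources used here, so reads in those stretches could belong to either gene.

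Of the 10 genes, 8 had an entry in the RefSeq promoter table of GRCm38.p6, and Fst and Tgfb3 had none. The 250 bases before the start of transcription are printed for 4 ligand genes: Inhba (chr13:16011601-16011850, plus strand) and Tgfb1 (chr7:25686752-25687001, plus strand), whose levels rose at E14 and fell at E16, Inhbb (chr1:119422249-119422498, minus strand), which had the largest rise, and Tgfb2 (chr1:186705990-186706239, minus strand), which holds the letters CAGAC most often among the 8. CAGAC, or GTCTG on the other strand, is the core of the element that Smad proteins bind, and is in capitals. All are written 5′ to 3′ on the strand of the gene.
Inhba: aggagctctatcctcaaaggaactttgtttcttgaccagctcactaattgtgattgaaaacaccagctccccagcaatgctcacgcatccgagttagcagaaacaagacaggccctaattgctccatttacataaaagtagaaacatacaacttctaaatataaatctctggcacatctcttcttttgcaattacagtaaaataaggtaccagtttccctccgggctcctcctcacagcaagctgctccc
Tgfb1: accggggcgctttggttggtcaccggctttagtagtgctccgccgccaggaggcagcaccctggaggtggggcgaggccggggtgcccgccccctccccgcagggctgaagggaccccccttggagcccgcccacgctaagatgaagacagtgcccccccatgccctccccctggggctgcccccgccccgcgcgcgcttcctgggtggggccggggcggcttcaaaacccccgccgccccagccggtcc
Inhbb: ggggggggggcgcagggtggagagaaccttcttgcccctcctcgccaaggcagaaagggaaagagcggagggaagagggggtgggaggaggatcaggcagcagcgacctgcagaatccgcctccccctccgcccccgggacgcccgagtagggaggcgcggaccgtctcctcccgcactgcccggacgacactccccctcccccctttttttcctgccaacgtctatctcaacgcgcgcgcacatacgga
Tgfb2: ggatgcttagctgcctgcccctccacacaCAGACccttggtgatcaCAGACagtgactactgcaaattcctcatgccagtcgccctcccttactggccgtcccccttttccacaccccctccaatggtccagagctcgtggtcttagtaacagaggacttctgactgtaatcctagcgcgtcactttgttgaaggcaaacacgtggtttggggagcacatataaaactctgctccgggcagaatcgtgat
CAGAC on either strand occurred in 4 of the 8 promoters, at 2 places in Tgfb2 and 1 each in Acvr2a, Acvr2b and Tgfbr2, and it occurred in 42.2% of the 32817 start sites in the table. The printed Inhba stretch held 43.2% G and C, the Tgfb2 stretch 53.6%, the Inhbb stretch 68.0% and the Tgfb1 stretch 75.2%. The letters were not found in the windows of Inhba, Inhbb, Tgfb1 or Tgfbr1.

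From E13 to E14, in the transition from bud to cap, 4 of the 10 genes rose and 1 fell, at an adjusted p under 0.05 in edgeR's quasi-likelihood test. Of all 19101 genes tested, 19.7% passed, 11.3% higher and 8.47% lower. Tgfb1, Inhba, Inhbb and Fst rose, and the activin receptor gene Acvr2b fell. From E14 to E16, 2 rose (Inhbb, Fst) and 2 fell (Inhba, Tgfb1), against 28.1% of all genes, 13.1% lower and the rest higher. Without the left tooth of embryo 3 at E16, 8 of the 10 passed in that step, 5 higher and 3 lower, against 34.3% of all genes, 18.5% higher and 15.8% lower. Leaving it out also changed the first step, through the estimate of the spread that all teeth share, to 5 higher and 1 lower, against 30.4% of all genes, 16.7% higher and 13.8% lower. Between E13 and E16, 5 genes were higher and 3 lower, against 41.3% of all genes, 21.6% higher and 19.6% lower. Without that tooth 6 were higher and 3 lower, against 48.7%, 25.5% higher and 23.1% lower. The median log2 fold change over the 10 genes was 0.25 from E13 to E14, −0.04 from E14 to E16 and 0.31 from E13 to E16, where that of all genes tested was −0.0083, 0.0037 and −0.0095.

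**Figure D1:**
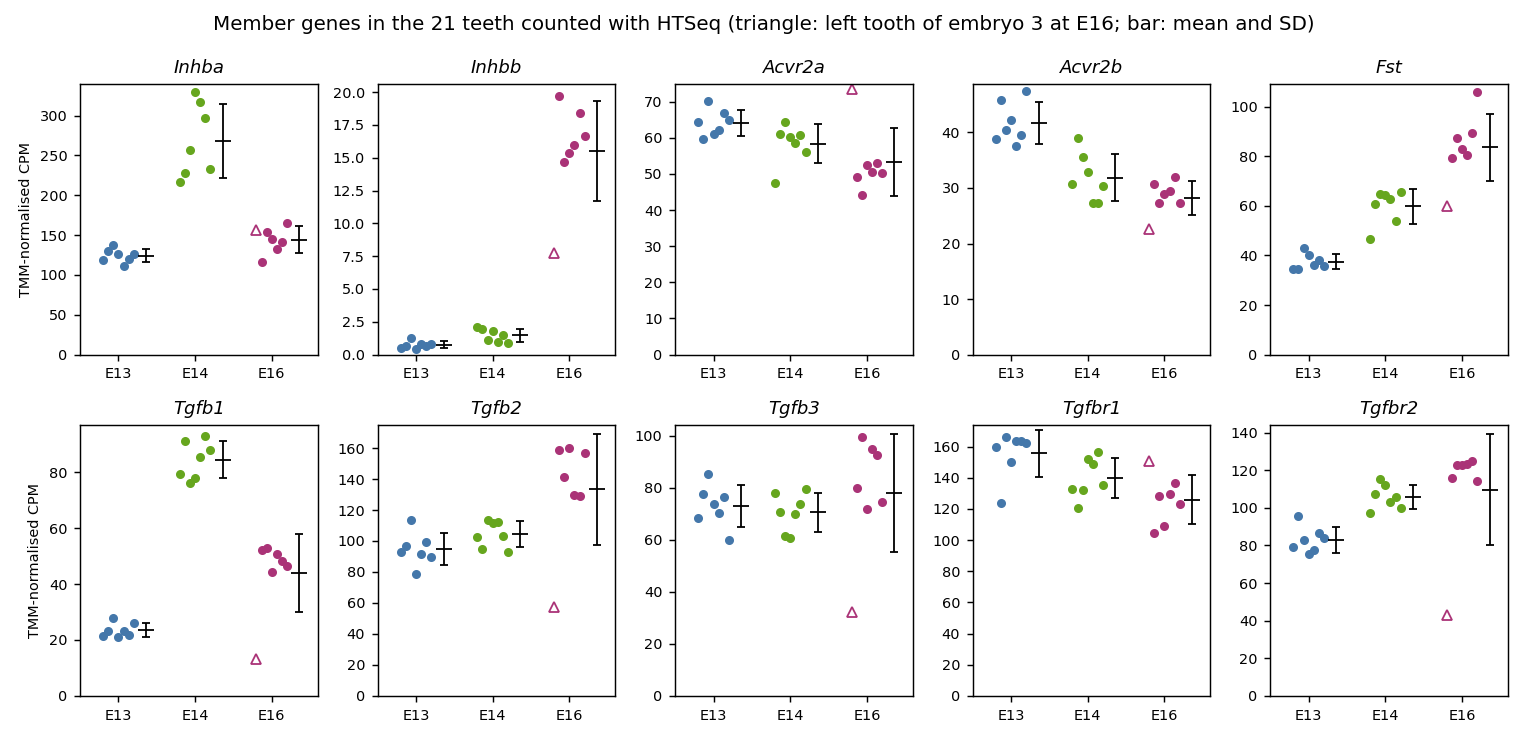
TMM-normalised CPM (y axis, from 0, a scale for each gene) of the 10 axis genes in single teeth at E13, E14 and E16 (x axis, 7 teeth a stage); black bars are the mean and SD, and the open triangle is the left tooth of embryo 3 at E16. Inhba and Tgfb1 are highest at E14, Inhbb and Fst at E16, and the triangle lies below the other E16 teeth in Tgfb1, Tgfb2, Tgfb3, Tgfbr2, Inhbb, Fst and Acvr2b and above them in Acvr2a and Tgfbr1.

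Inhba, the gene of the activin A subunit, doubled at the cap stage and came back down at the bell stage. Its level, in CPM scaled by the trimmed mean of M values (TMM), ranged from 111 over a median of 126 to 137 in the E13 teeth, from 216 over 257 to 329 at E14, and from 116 over 146 to 165 at E16. Every E14 tooth was above every E13 and every E16 tooth, while the E13 and E16 teeth overlapped. The rise to E14 was 2.16-fold (log2 fold change 1.11, SE 0.10, adjusted p = 8.1e-09) and the fall to E16 1.86-fold (log2 fold change −0.89, SE 0.10, adjusted p = 9.9e-08). Leaving out the E16 tooth that stood apart gave a log2 fold change of −0.90 for the fall. E16 and E13 differed by 0.22 on the log2 scale (0.21 without that tooth), which did not pass the test (adjusted p = 0.070, and 0.060 without that tooth), although 6 of 30 alternative settings put it under the threshold. The E14 teeth also varied more among themselves than the E13 teeth, with a coefficient of variation of 17.2% against 6.78%.

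Inhbb, the gene of the activin B subunit, had a very low level at the bud stage and rose at both steps. It ranged from 0.42 over 0.69 to 1.25 CPM at E13, from 0.87 over 1.5 to 2.07 CPM at E14, and from 7.78 over 15.98 to 19.7 CPM at E16. The E13 and E14 teeth overlapped, and all E16 teeth were above all earlier ones. The first step was 1.96-fold (log2 fold change 0.97, SE 0.26, adjusted p = 0.0085) and the second 10.6-fold (3.41, SE 0.23, adjusted p = 3.3e-11). The lowest E16 value, 7.78 CPM, was that of the left tooth of embryo 3, and the other 6 teeth lay between 14.7 and 19.7 CPM. Without it the second step was 11.6-fold. The whole rise from E13 to E16 was 20.9-fold (log2 fold change 4.38, SE 0.25, adjusted p = 4.2e-13), or 22.9-fold without that tooth. Several marker sums rose between the same stages, among them epithelium (median 1337 to 4574 CPM) and enamel knot (18.5 to 232 CPM). Their part in the rise was not tested.

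Tgfb1, the ligand gene best known from immune and wound tissue, had the largest change of the 10 at the bud to cap transition. It ranged from 20.9 over 23.3 to 27.9 CPM at E13, from 76.3 over 85.4 to 92.9 CPM at E14, and from 13.2 over 48.3 to 52.7 CPM at E16. The E14 teeth were above all others. At E16 a single tooth, the left of embryo 3, lay below all E13 teeth, and the other 6, from 44.3 CPM up, lay above all of them. The rise to E14 was 3.59-fold (log2 fold change 1.84, SE 0.18, adjusted p = 6.5e-08) and the fall to E16 1.92-fold (−0.94, SE 0.18, adjusted p = 0.00023). Without that tooth the fall was 1.70-fold (−0.77, adjusted p = 3.6e-09). E16 remained 1.87-fold above E13 with all teeth (adjusted p = 0.00024) and 2.11-fold without that tooth.

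Inhba and Tgfb1 were thus the genes of the axis that passed the test upward at the first step and downward at the second, which 353 genes of all tested (1.85%) did. Inhbb and Fst passed upward at both steps, as did 708 genes (3.71%). Acvr2b, described below, was lower at E14 and at E16 than at E13 without passing between E14 and E16, as were 721 genes (3.77%).

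Tgfb2 and Tgfb3, the other ligand genes, changed less. Tgfb2 ranged from 78.9 over 93.0 to 113 CPM at E13, from 92.8 over 103 to 114 CPM at E14, and from 57.1 over 141 to 160 CPM at E16. Its E13 and E14 teeth overlapped (log2 fold change 0.14, SE 0.14, adjusted p = 0.54). From E14 to E16 the log2 fold change was 0.35 (SE 0.14) and missed the threshold with all teeth (adjusted p = 0.070). That of embryo 3 (left), at 57.1 CPM, was the lowest of all 21, and the other E16 teeth, from 129 to 160 CPM, were above every E14 tooth. Without it the rise was 1.41-fold (log2 fold change 0.50, adjusted p = 7.3e-06). Tgfb2 at E16 was higher than at E13 by 1.41-fold with all teeth (adjusted p = 0.0079) and by 1.56-fold without that tooth (adjusted p = 8.6e-08).

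Tgfb3 ranged from 59.8 over 73.9 to 85.2 CPM at E13, from 60.7 over 70.7 to 79.4 CPM at E14, and from 32.3 over 80.1 to 99.7 CPM at E16. The stages overlapped at every step, and none of the 3 comparisons passed the test with all teeth (log2 fold changes −0.05, 0.15 and 0.09, each with an SE of 0.15). Without the left tooth of embryo 3, the E16 teeth, 71.8 to 99.7 CPM, passed against E14 (log2 fold change 0.30, adjusted p = 0.0092) and against E13 (0.24, adjusted p = 0.023).

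Fst, the gene of follistatin, rose at both steps. It ranged from 34.4 over 36.3 to 42.9 CPM at E13, from 46.5 over 62.8 to 65.4 CPM at E14, and from 60.1 over 82.8 to 106 CPM at E16. The E14 teeth were all above the E13 teeth, and of the E16 teeth only the left tooth of embryo 3 lay within the E14 range. The first step was 1.59-fold (log2 fold change 0.67, SE 0.10, adjusted p = 2.1e-05) and the second 1.40-fold (0.48, SE 0.10, adjusted p = 0.00050), or 1.48-fold without that tooth. Over both steps Fst rose 2.23-fold (log2 fold change 1.16, SE 0.10, adjusted p = 8.5e-10), with a log2 fold change of 1.24 without that tooth. Each of the 3 calls held in all 30 alternative settings. The median summed levels of the epithelium, enamel knot and macrophage and leukocyte markers, among others, rose over the same steps, and their part was not tested.

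The receptor genes moved by less than 1.5-fold between E13, E14 and E16. Acvr2b, a type II activin receptor gene, ranged from 37.5 over 40.4 to 47.5 CPM at E13, from 27.3 over 30.7 to 39.0 CPM at E14, and from 22.5 over 28.8 to 31.9 CPM at E16. The E14 teeth overlapped with both other stages, and the E13 and E16 teeth did not overlap. It fell 1.31-fold at the first step (log2 fold change −0.39, SE 0.09, adjusted p = 0.0032), and the further difference of −0.17 at the second did not pass (adjusted p = 0.16, and −0.11 with adjusted p = 0.32 without the left tooth of embryo 3). Over both steps it fell 1.47-fold (log2 fold change −0.56, adjusted p = 1.9e-05), and 1.41-fold without the left tooth of embryo 3.

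Acvr2a, the other type II activin receptor gene, ranged from 59.7 over 64.3 to 70.1 CPM at E13, from 47.4 over 60.2 to 64.4 CPM at E14, and from 44.0 over 50.5 to 73.5 CPM at E16. The highest of all 21 values, 73.5 CPM, was in the left tooth of embryo 3, and the other E16 teeth, up to 53.1 CPM, were below every E13 tooth. Neither step passed with all teeth (log2 fold changes −0.14 and −0.13, SE 0.09). From E13 to E16 Acvr2a fell 1.20-fold (log2 fold change −0.27, adjusted p = 0.018), and without that tooth 1.27-fold (−0.35, adjusted p = 8.1e-05). This call with all teeth was less firm than the others and held in 22 of 30 alternative settings. Among other settings, it was lost when the teeth of 1 embryo were summed (−0.22, adjusted p = 0.096) and when libraries were scaled by their totals only (−0.23, adjusted p = 0.13).

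Tgfbr1, the type I Tgf-beta receptor gene, ranged from 124 over 162 to 166 CPM at E13, from 121 over 135 to 157 CPM at E14, and from 105 over 128 to 150 CPM at E16. The stages overlapped at every step. In the E13 group 1 tooth, the left of embryo 2, was at 124 CPM while the others were at 150 or more. The lowest of these others was still below the highest E14 tooth, at 157 CPM. Neither step passed (log2 fold changes −0.16 and −0.15, SE 0.08), and from E13 to E16 Tgfbr1 fell 1.24-fold (−0.31, SE 0.08, adjusted p = 0.0049), or 1.27-fold without the left tooth of embryo 3.

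Tgfbr2, the type II receptor gene that binds the Tgf-beta ligands, ranged from 75.3 over 83.0 to 95.5 CPM at E13, from 97.0 over 106 to 115 CPM at E14, and from 43.0 over 123 to 125 CPM at E16. Every E14 tooth was above every E13 tooth, yet the log2 fold change of 0.35 (SE 0.15) missed the threshold in the fit of all teeth (adjusted p = 0.092). The left tooth of embryo 3 at E16, at 43.0 CPM, shares the estimate of the spread in that fit, and the other 6 E16 teeth lay between 114 and 125 CPM. Without it the same difference of 0.35 had an adjusted p of 1.5e-05, and a fit of the E13 and E14 teeth alone gave 9.7e-05. From E14 to E16 the difference was 0.05 with all teeth (adjusted p = 0.82) and 0.21 without that tooth (adjusted p = 0.0041). From E13 to E16 Tgfbr2 rose 1.32-fold (adjusted p = 0.029), or 1.47-fold without that tooth (adjusted p = 5.1e-09). The call with all teeth held in 24 of 30 alternative settings. Among other settings, it was lost with the teeth of 1 embryo summed (0.35 on the log2 scale, adjusted p = 0.10). It was also lost in a fit of these 2 stages alone (0.41, adjusted p = 0.060).

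The teeth of E13 and E14 did not overlap in 4 of the 10 genes, against 9.91% of all genes tested. Those of E14 and E16 did not overlap in 3, against 10.9%, and without the left tooth of embryo 3 in 5, against 15.4%. Those of E13 and E16 did not overlap in 3, against 19.0%, and without that tooth in 7, against 27.5%.

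**Figure D2:**
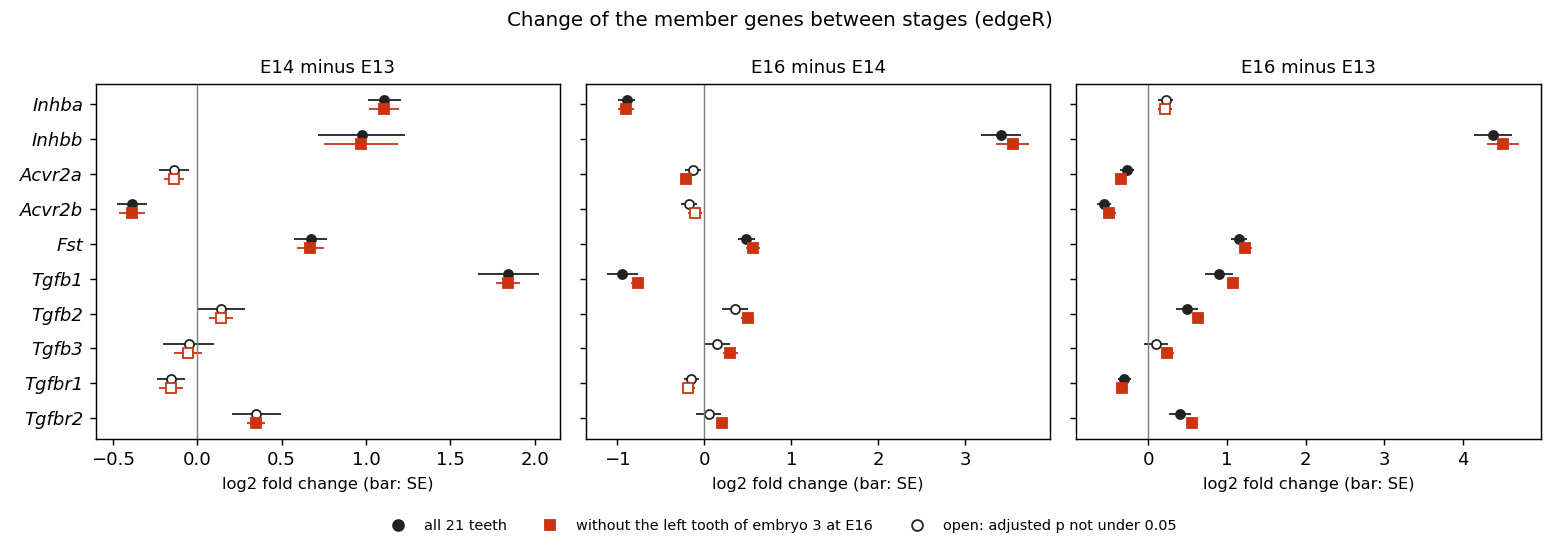
Log2 fold change (x axis, a scale for each panel; bars are SE) of each axis gene (y axis) between stages, from edgeR with all 21 teeth (black circles) and without the left tooth of embryo 3 at E16 (red squares); filled symbols have an adjusted p under 0.05. Inhbb has the largest changes that involve E16, 3.41 and 4.38, and Tgfb1 the largest from E13 to E14, 1.84; leaving out the tooth fills the symbols of Tgfb2, Tgfb3, Tgfbr2 and Acvr2a from E14 to E16.

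The ratio of antagonist to ligand shifted in both directions. Within each tooth, a ratio of 2 genes does not depend on the scaling between libraries, and its change between stages does not depend on the lengths assumed for the genes. The log2 ratio of Fst to Inhba, of counts plus 1 per exon kilobase, ranged from −1.44 over −1.20 to −1.13 at E13, from −1.98 over −1.74 to −1.35 at E14, and from −0.91 over −0.24 to −0.07 at E16. The E16 teeth were above all others and the E14 teeth were mostly the lowest. The ratio was lower by 0.43 at E14 than at E13 (adjusted p = 0.0052, exact two-sided permutation test of 7 against 7 teeth, 3432 splits, adjusted over 15 tests). It was higher at E16 by 1.36 than at E14 and by 0.93 than at E13 (both adjusted p = 0.0022 in the exact test, from the smallest p such a split can give, 0.000583). The lowest E16 tooth was the left of embryo 3, at −0.91, and the other 6 lay between −0.34 and −0.07. Without it the E16 teeth were higher by 1.45 than E14 and by 1.03 than E13.

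The ratio of the activin subunit genes changed by more. The log2 ratio of Inhba to Inhbb averaged 6.78 ± 0.45 in E13 teeth, 6.95 ± 0.59 in E14 teeth and 2.67 ± 0.55 in E16 teeth (SD, n = 7), or 110-fold, 123-fold and 6.37-fold more Inhba than Inhbb per exon kilobase. Between E13 and E14 the difference of 0.16 did not pass (adjusted p = 0.64, exact permutation test), and between E14 and E16 the ratio fell by 4.27 (adjusted p = 0.0022, exact permutation test) with no overlap. Embryo 3's left tooth had the highest E16 ratio, 3.74, and without it the difference between E16 and E14 was −4.45.

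Ratios of receptor genes and of the other ligands moved by less. The log2 ratio of Tgfbr1 to Tgfbr2 averaged 1.23 ± 0.24 in E13 teeth, 0.72 ± 0.16 in E14 teeth and 0.59 ± 0.69 in E16 teeth (SD, n = 7). It was lower at E14 than at E13 by 0.51 (adjusted p = 0.0087, exact permutation test) and at E16 than at E13 by 0.64 (adjusted p = 0.048, exact permutation test). The left tooth of embryo 3 was at 2.13 while the other E16 teeth lay between 0.15 and 0.46, below every E14 tooth. Without it the ratio was lower at E16 than at E14 (log2 difference −0.39, adjusted p = 0.0037, exact permutation test), where with all teeth the difference of −0.13 did not pass (adjusted p = 0.81, exact permutation test), and the E16 against E13 difference was −0.90. The log2 ratio of Acvr2a to Acvr2b was 0.09 ± 0.17, 0.34 ± 0.20 and 0.37 ± 0.36 in the same order (SD, n = 7), and the difference of 0.25 from E13 to E14 had an adjusted p of 0.048 in the exact permutation test. With the mean over the teeth of 1 embryo, this difference was 0.21 and no longer passed, and neither did the E16 against E13 difference of Tgfbr1 to Tgfbr2, then −0.55. The Acvr2a to Acvr2b call was also lost with some single teeth left out, such as the left of embryo 2 at E13 (adjusted p = 0.095, exact permutation test). The Tgfbr1 to Tgfbr2 call was lost with any 1 E13 tooth left out (adjusted p from 0.051 to 0.098, exact permutation test). It was also lost with any 1 E16 tooth left out apart from the left of embryo 3. The log2 ratio of Tgfb2 to Tgfb3 was −0.40 ± 0.15, −0.21 ± 0.25 and 0.0057 ± 0.30 (SD, n = 7), higher at E16 than at E13 by 0.41 (adjusted p = 0.019, exact permutation test), or by 0.40 without that tooth. The E16 against E13 difference of Acvr2a to Acvr2b was 0.28 with all teeth and 0.15 without that tooth, and neither passed (adjusted p = 0.060 and 0.11, exact permutation test).

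**Figure D3:**
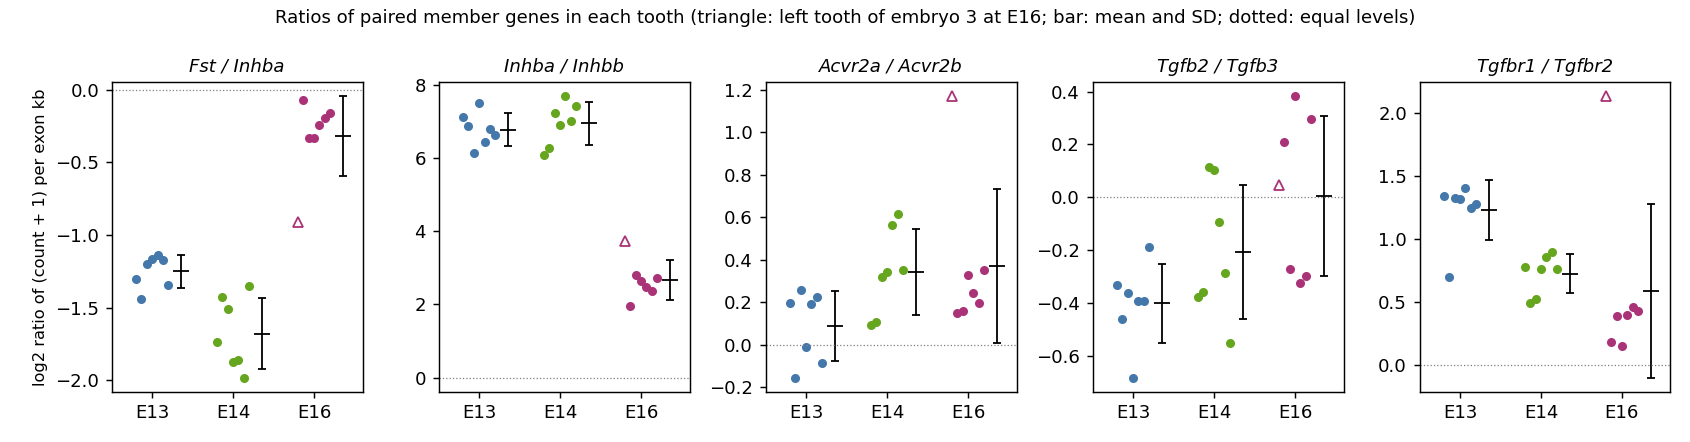
Log2 ratio of (count + 1) per exon kilobase (y axis, a scale for each panel) of 5 gene pairs in single teeth at E13, E14 and E16 (x axis, 7 teeth a stage), with the mean and SD as black bars, equal levels as a dotted line and an open triangle for the E16 tooth that stood apart. The ratio of Fst to Inhba is lowest at E14 and highest at E16, and that of Inhba to Inhbb drops from a mean of 6.95 at E14 to 2.67 at E16.

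Set side by side per exon kilobase of the GENCODE annotation, the levels of the 10 genes spanned a wide range at E13 and a narrower one at E16. At E13 Tgfbr1 was first, at 23.8 ± 2.28 CPM per kilobase (SD, n = 7), followed by Tgfb3 (21.6 ± 2.37), Inhba (19.4 ± 1.32) and Tgfb2 (16.4 ± 1.81), and the teeth of each neighbouring pair among these 4 overlapped. Acvr2a, Acvr2b, Tgfbr2 and Fst came next, between 11.3 and 8.18 on average, again with overlap between neighbours. Tgfb1, at 4.67 ± 0.51, and Inhbb, at 0.17 ± 0.06, were below them without overlap. At E14 Inhba was first, at 42.0 ± 7.22 CPM per kilobase, above every tooth of the next gene, Tgfbr1, at 21.4 ± 1.98. Tgfb1 had come up to the fifth place, at 16.7 ± 1.31, within the range of Tgfb2. At E16 Tgfb3, Tgfb2 and Inhba (23.1, 23.0 and 22.6 CPM per kilobase on average) did not differ beyond their spread, Fst stood at 18.2 ± 2.97, and Inhbb was still last, at 3.64 ± 0.90. Without the tooth that stood apart these E16 means were 25.3, 25.2, 22.3, 19.1 and 3.95, in the same order.

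These places depend on the length used. Divided by the longest annotated transcript, which is 2573 bases for Tgfb1 against 5042 bases of merged exons and 2921 against 4589 for Fst, Tgfb1 came second at E14, at 32.8 CPM per kilobase, and Fst first at E16, at 28.6. Inhba at the top of E14 and Inhbb at the bottom of every stage held under both lengths.

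**Figure D4:**
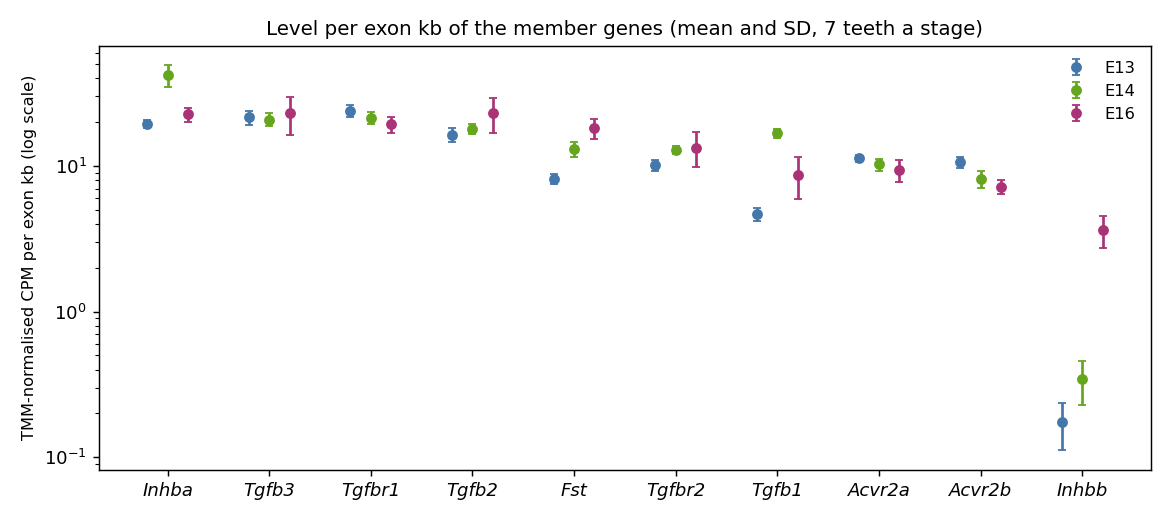
Level per exon kilobase (y axis, TMM-normalised CPM per kilobase, log scale) of the axis genes (x axis, ordered by their mean over the stages), as the mean and SD of 7 teeth at E13, E14 and E16. Inhba at E14, 42.0, is the highest mean and Inhbb at E13, 0.17, the lowest.

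In the second table, quantified with salmon, 9 of the 10 genes were listed (not Tgfbr1) among 14185 genes, and 13447 genes were tested. It was made separately, so its levels are not set beside those above, and its E13 and E16 teeth are the same libraries and no independent replicates. The paper describes no mouse teeth of E15. In comparisons with E15, stage and any difference in the handling of those teeth cannot be told apart. From E13 to E15, 6 of the 9 rose and 1 (Acvr2b) fell, against 26.8% of all genes, 18.3% higher and 8.49% lower. The counts were the same without the left tooth of embryo 3 at E16, against 35.0%, 22.1% higher and 12.9% lower. Inhba rose 2.31-fold (log2 fold change 1.21, SE 0.15, adjusted p = 1.5e-06), Inhbb 12.3-fold (3.62, SE 0.24, adjusted p = 9.6e-11) and Fst 2.48-fold (1.31, SE 0.11, adjusted p = 8.0e-09). Tgfb1 rose 1.61-fold, Tgfb2 1.66-fold and Tgfbr2 1.54-fold (adjusted p = 0.0055, 0.0025 and 0.0018). The E13 and E15 teeth did not overlap in Inhba, Inhbb, Fst, Tgfb1 and Tgfbr2. The share of all genes without overlap was not computed for these stages, so this has no measure beside it.

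From E15 to E16 only Inhba and Inhbb of the 9 passed, against 6.33% of all genes, 3.64% higher and 2.69% lower. Inhba fell 1.96-fold (log2 fold change −0.97, SE 0.15, adjusted p = 0.00014), and Inhbb rose 1.73-fold (0.79, SE 0.20, adjusted p = 0.017). The log2 fold changes were −1.03 and 0.89 without the left tooth of embryo 3 at E16. Without it Tgfb1 passed too (0.34, adjusted p = 0.016), against 10.3% of all genes, 6.0% higher and 4.3% lower. Over the whole span, E13 to E16, 5 of the 9 were higher and 1 lower, against 36.4% of all genes, 21.7% higher and 14.7% lower. Without that tooth 5 were higher and 2 lower, against 42.3%, 24.0% higher and 18.4% lower. The fold change of Tgfb1 over this span was 1.85, or 2.05 without that tooth, beside 1.87 and 2.11 in the other table. Against the same E13 teeth, Tgfb1 was thus 3.59-fold higher at E14 and 1.61-fold higher at E15, each in its own table, and the difference between these was not tested.

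The E15 teeth were uneven in Inhba, which had values of 167, 301, 346, 360, 394 and 433 CPM. The low value, from the right tooth of embryo 4, lay just above the highest E13 tooth, at 160 CPM, and within the E16 range. The same tooth had the lowest Acvr2a, 36.9 CPM against 67.6 to 84.8 in the other 5, the lowest Fst, 82.1 against 98.9 to 146, and the highest Inhbb and Tgfb1, 13.8 and 55.6 CPM. Its dental mesenchyme markers, at 7332 CPM, lay within the 6580 to 7822 of the E15 teeth, and its epithelium markers, at 4920 CPM, were the highest of the 6. Without it, the Acvr2a difference between E15 and E13 was 0.01 on the log2 scale in place of −0.12, neither of which passed.

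**Figure D5:**
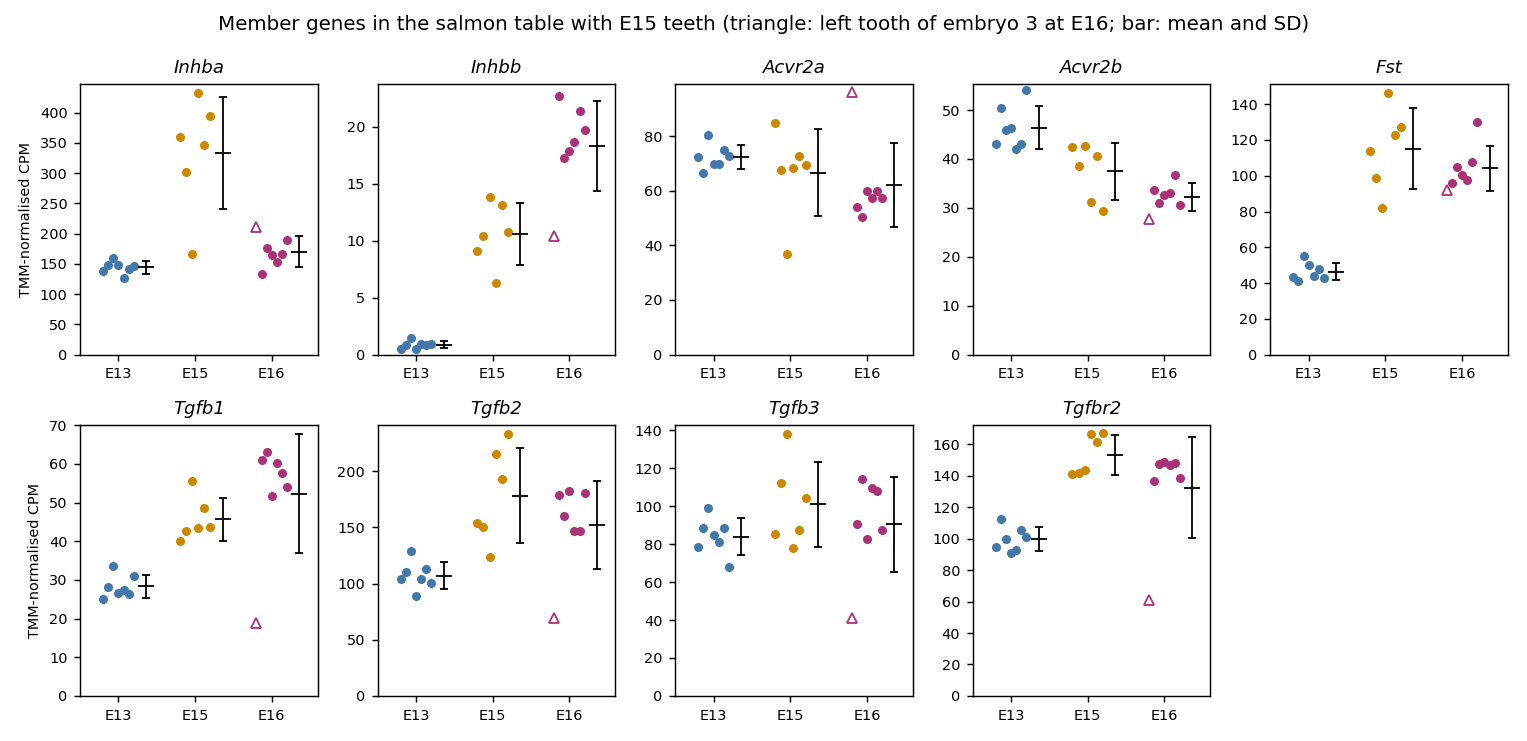
TMM-normalised CPM in the salmon table (y axis, from 0, a scale for each gene) of the 9 axis genes listed there, in single teeth at E13 (7), E15 (6) and E16 (7), with the mean and SD as black bars and an open triangle for the E16 tooth that stood apart. Inhba is highest at E15, with 1 tooth at 167 apart from the 301 to 433 of the others, and Inhbb rises from a mean of 0.86 at E13 over 10.6 at E15 to 18.3 at E16.

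Of 74 further genes of the pathway, 62 passed the filter on low counts. From E13 to E14, 23 rose and 3 fell, against 19.7% of all genes in either direction. From E14 to E16, 11 rose and 10 fell, against 28.1%, and without the left tooth of embryo 3 at E16, 19 rose and 12 fell, against 34.3%. In that fit 29 rose and 7 fell from E13 to E14, against 30.4%. From E13 to E16, 23 rose and 7 fell, against 41.3%, and without that tooth 32 rose and 7 fell, against 48.7%. The counts of each group of these genes, below, are read against the same shares of all genes. The median log2 fold change of the 62 was 0.23, −0.06 and 0.15 in these comparisons.

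Other ligands were few. Only Inha, Gdf11 and Amh of 9 were tested, and 1 of the 3 passed at each step, with and without the E16 tooth that stood apart. Gdf11, a close relative of myostatin, fell from E13 to E14 (log2 fold change −0.37, adjusted p = 0.043), and Inha, whose subunit turns an activin subunit into an inhibin, rose from E14 to E16 (0.51, adjusted p = 0.0020), from 11.4 to 16.2 CPM.

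Among the 10 antagonists and co-receptors tested, 5 rose and 1 fell from E13 to E14, against 19.7% of all genes in either direction, and 2 rose and 3 fell from E14 to E16, against 28.1%. Without the left tooth of embryo 3 at E16, 5 rose and 2 fell at the first step, against 30.4%, and 3 rose and 4 fell at the second, against 34.3%. Fstl4, a follistatin-like gene, moved up and down as Inhba did, with mean levels of 2.71, 8.88 and 3.0 CPM (log2 fold changes 1.71 and −1.56, adjusted p = 3.5e-05 and 4.8e-05). Fstl3, whose product also binds activins, rose at both steps as Fst did (1.04 and 0.52, adjusted p = 0.00014 and 0.025), from 3.52 over 7.25 to 10.4 CPM.

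Of the 4 other receptor genes tested, 2 passed at the first step and 1 at the second, with and without the E16 tooth that stood apart. Bmpr2, a type II receptor of bone morphogenetic proteins, and Acvr1, a type I receptor, rose from E13 to E14 (log2 fold changes 0.44 and 0.38, adjusted p = 0.00035 and 0.0020). Acvr1b, the type I receptor that activins use, rose from E14 to E16 (0.36, adjusted p = 0.022).

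Of 13 genes that hold or release latent Tgf-beta, 5 rose and 1 fell at the first step, against 19.7% of all genes, and 4 rose and 1 fell at the second, against 28.1%. Without the E16 tooth that stood apart, 6 rose and 2 fell at the first, against 30.4%, and 7 rose and 1 fell at the second, against 34.3%. Ltbp2, a latency-binding protein gene of the matrix, had the largest change, with mean levels of 1.55 CPM at E13, 7.03 at E14 and 41.0 at E16 (log2 fold changes 2.17 and 2.54, adjusted p = 1.8e-06 and 9.0e-09). Itgb6, the subunit of an integrin that activates Tgf-beta, rose at the second step (0.85, adjusted p = 0.024), from 1.89 to 3.41 CPM.

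Of 15 Smad transducers and regulators tested, 2 rose at the first step, Skil and Pmepa1, against 19.7% of all genes passing, and 5 fell at the second, against 28.1%. Without the E16 tooth that stood apart, 4 rose and 2 fell at the first, against 30.4%, and 1 rose and 6 fell at the second, against 34.3%. Skil, a repressor of Smad activity that Tgf-beta signals are known to induce, followed the course of Inhba and Tgfb1, with mean levels of 97.0, 176 and 106 CPM (log2 fold changes 0.86 and −0.73, adjusted p = 1.6e-07 and 7.5e-07). Pmepa1, another induced inhibitor, rose from 42.0 to 62.0 CPM (0.56, adjusted p = 0.0071), and its difference of −0.36 at the second step missed the threshold (adjusted p = 0.065). Smad6, Smad7 and Ski passed at neither step with all teeth. Their log2 fold changes were −0.23, −0.01 and 0.31 at the first and −0.24, −0.22 and −0.21 at the second. Smad2, which both branches use, did not pass at the first step (−0.0026) and fell at the second (−0.19, adjusted p = 0.027).

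Of 17 genes listed as Tgf-beta targets, 9 rose from E13 to E14, against 11.3% of all genes higher, and 12 rose without the E16 tooth that stood apart, against 16.7%. From E14 to E16, 3 rose and 1 fell, against 28.1% in either direction, and without that tooth 6 rose and 1 fell, against 34.3%. Cdkn1a, a cell cycle inhibitor gene that also stands in the enamel knot list, rose from 4.92 to 21 CPM (log2 fold change 2.09, adjusted p = 3.5e-08), and Bhlhe40, a transcription factor gene, from 8.15 to 31.6 CPM (1.95, adjusted p = 3.3e-09). The list holds genes that other signals also control, among them Id1 and Edar.

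The genes whose course over the 21 teeth was most like that of an axis gene are given as a description, since all share the same libraries and stages. By Pearson r of log2(CPM + 1), 1500009L16Rik (r = 0.95), Gad1 (0.94) and Anks1b (0.94) were nearest to Inhba. Gja1 (0.99), a connexin gene, Aldh1a3 (0.98), a retinoic acid synthesis gene, and Wnt7a (0.98) were nearest to Inhbb. Cxcr4 (0.97), Endod1 (0.96) and Loxl1 (0.96) were nearest to Tgfb1, and Ccdc3 (0.97), Igfbp7 (0.97) and Dlx4 (0.97) to Fst. Tgfbr2 was most like Lamc1 (0.96), Litaf (0.96) and Col4a2 (0.96), which include basement membrane genes. Tgfb2 was most like Tcn2 (0.95), Tgfb3 like Sh3pxd2b (0.93), Acvr2b like Tab1 (0.93), Acvr2a like Fbxl5 (0.92) and Tgfbr1 like N4bp2 (0.89). Among the axis genes, Inhba and Tgfb1 had an r of 0.78 across all teeth and of −0.17 within stages, after the mean of each stage was taken off. Single teeth weigh on such values. Without the left tooth of embryo 3 at E16, the r within stages went from 0.74 to 0.07 for Tgfb2 and Tgfb3. For Inhba and Fst it went from 0.28 to 0.48.

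Left and right teeth of the same embryo, available for 3 embryos, differed in the axis genes by at most 0.60 on the log2 scale, in Inhbb of the E14 pair, and by at most 0.47 in the others, in Tgfb3 of embryo 6 at E16.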

How the data were processed

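Whole first molar tooth germs of E13, E14 and E16 were dissected one by one, and a library was made from each with the Ovation Mouse system and sequenced on a NextSeq 500. The authors aligned the reads with STAR to GRCm38 (Ensembl release 90), after checks and trimming by FastQC, AfterQC and Trimmomatic, and deposited HTSeq counts per gene for 21 teeth. A deposited table of expected counts, estimated with salmon by its name, holds whole numbers for 20 teeth. Its salmon index and its choice of genes are not given in the sources used here, and the E15 tooth with no column in it was not analysed here. The submitters' processing notes name Trimmomatic 0.39, FastQC 0.11.8 and Salmon 0.99.0.

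Gene symbols, positions and exon lengths came from GENCODE vM21 (GRCm38). Counts were tested with edgeR 4.0.16 (R 4.3.3): filterByExpr, TMM, a quasi-likelihood fit on stage over all teeth of a table, and Benjamini-Hochberg adjustment over all 19101 (HTSeq) or 13447 (salmon) genes tested, with a threshold of 0.05. The biological coefficient of variation was 21.2%. DESeq2 1.42.0 was an alternative. CPM used TMM library sizes, and levels between genes were divided by merged exon length. Ratios within a tooth had 1 count added and an exact permutation test over all splits of the teeth, which was checked on 1 example against scipy 1.17.1. Alternatives were another normalization, no filter on low counts, teeth of 1 embryo summed, 1 tooth per embryo, side of the jaw or embryo number in the model, and each tooth left out. The scripts were tested on simulated data. The genes named from other lists were those with the largest and second largest change past the threshold in either step, plus members of small counts. Smad2, Smad6, Smad7, Ski, Id1, Edar, Col3a1 and Pmepa1 at the second step were picked with their values in view, as were the printed promoters. The axis genes and lists were chosen with earlier results of these data known, so no list is independent evidence. Nothing says whether teeth came from separate litters, so p-values measure the spread between these teeth.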

Additional observations from a re-analysis of the deposited data

Results flagged for a closer look

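Of 54 groups of 6 or 7 teeth tested for a highest or lowest value that stands apart (Dixon's test), 12 were marked, where chance marks about 1 in 20. The left tooth of embryo 3 at E16 held 9 of them. In CPM these were Tgfb1 at 13.2, Tgfb2 at 57.1, Tgfb3 at 32.3, Tgfbr2 at 43.0, Inhbb at 7.78 and Acvr2a at 73.5, the last being high and the rest low. As log2 ratios they were Fst to Inhba at −0.91, Acvr2a to Acvr2b at 1.17 and Tgfbr1 to Tgfbr2 at 2.13. Inhba in that tooth, at 157 CPM, lay within the 116 to 165 of the other E16 teeth. Its low mesenchyme, epithelium and endothelium markers and its mitochondrial share are given in the report, and their part in these values was not tested.

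The left tooth of embryo 2 at E13 had a low Tgfbr1, 124 CPM, and a low log2 ratio of Tgfbr1 to Tgfbr2, 0.70. The right tooth of embryo 4 at E15 had a low Acvr2a, 36.9 CPM, in the salmon table.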

How the results depend on the processing

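Every call of Inhba, Inhbb from E14 on, Fst and Tgfb1 named in the report kept its direction and its side of the threshold in all 30 alternatives, apart from Inhba between E16 and E13. With the embryo number as a replicate block, 3 in place of 5 axis genes passed from E13 to E14 and 5 in place of 8 from E13 to E16, and 15 and 19 of the other pathway genes in place of 26 and 30. Numbers of different stages name different embryos, so the block marks no shared animal. Deviations from the stage mean correlated above 0.1 in 6 of 15 pairs of teeth with the same number at different stages. They did so in 29 of 132 pairs with different numbers and in 1 of 3 left and right pairs of the same embryo. With only these 3 pairs from the same embryo to set beside them, no conclusion is drawn from these shares. From E14 to E16, 11 of the other pathway genes passed with the teeth of 1 embryo summed and 12 with 1 tooth per embryo, in place of 21. The sign turned in values that had not passed: Tgfb3 from E13 to E16 was −0.033 with 1 tooth per embryo and −0.10 with the block, and Tgfbr2 from E14 to E16 −0.015 and −0.011 in these. With the mean over the teeth of 1 embryo, the ratio of Acvr2a to Acvr2b from E13 to E14 was 0.21 and that of Tgfbr1 to Tgfbr2 from E13 to E16 −0.55, neither past the threshold. Both of these calls were also lost with some single teeth left out. Leaving out each tooth in turn, axis genes called ranged from 5 to 6 (E13 to E14), 4 to 8 (E14 to E16, 8 without the left tooth of embryo 3) and 7 to 9 (E13 to E16), and in the salmon table from 6 to 7 (E15 against E13), 2 to 3 and 6 to 7. Other pathway genes ranged from 22 to 36, 16 to 31 and 24 to 39. The Acvr2a to Acvr2b ratio changed by 0.21 to 0.30 (E13 to E14), −0.10 to 0.074 (E14 to E16) and 0.15 to 0.32 (E13 to E16), Tgfbr1 to Tgfbr2 by −0.39 to −0.062 (E14 to E16) and −0.90 to −0.57 (E13 to E16), and Tgfb2 to Tgfb3 by 0.34 to 0.46 (E13 to E16). Acvr2a from E13 to E15 ranged from −0.20 to 0.0053. The causes were not tested. Depth limits Inhbb at E13, the only axis gene near 1 CPM.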
